A study of Mus musculus with 12 samples.

Results

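Allogeneic mesenchymal stromal cell (MSC) transplantation after spinal cord injury was compared here with injury alone. The libraries were taken by their labels: 3 of injured mouse cord that received allogeneic MSCs and 3 of injured cord without a graft (called SCI below), 6 of the 12 libraries of the series. All host mice were labelled as the strain C57BL6/cJ, and no library was labelled with a mutation or transgene. The other 6 libraries, 3 of injured cord with syngeneic MSCs and 3 of non-injured cord, entered the same model and are used for levels and for the difference between donor kinds. Nothing in the sources used here gives the donor strain, the cell dose, the time after injury, the hour of collection, the age or the sex, and the label of the SCI group names no control injection. The labels do not tie each sample to an animal of its own, and each p-value therefore rests on sample-to-sample spread, part of which may be technical.

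MSCs are fibroblast-like cells of bone marrow and other tissues that are grafted for the factors they release. An allogeneic graft comes from a genetically different donor of the same species, a syngeneic one from a genetically identical donor. Major histocompatibility complex (MHC) molecules display peptides at the cell surface, and T cells read them with a receptor built from variable chains and the CD3 chains. CD8, a dimer of the products of Cd8a and Cd8b1, binds MHC class I and marks cytotoxic T cells. CD4 binds MHC class II and marks helper T cells. The uninjured cord holds few T cells, and injury admits blood leukocytes through the broken barrier.

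The 12 libraries held 8705942 to 26151928 counts, and the shallowest was replicate 2 of the allogeneic group. The 6 libraries compared were correlated at 0.972 to 0.991 on the log2 CPM scale (CPM being counts scaled to a common library size, with TMM factors). Allogeneic replicate 1 was closer to the SCI libraries (0.984 to 0.987) than to the other two of its own group (0.972 to 0.973). The mitochondrial share was 5.0% to 6.40% in SCI and 5.14% to 5.62% in the allogeneic group. The numbers used as sample titles in the allogeneic group lie apart from those of SCI, so a separate round of surgery or handling cannot be told apart from the transplant. Checked against the tissue label, the astrocyte gene Gfap, the myelin gene Mbp and the neuronal gene Snap25 were at 5626, 10029 and 1727 CPM or more in each of the 6 libraries.

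Most of the genes that rose in the cord with allogeneic MSCs were T cell genes. Of 16527 genes tested with edgeR's quasi-likelihood test, 31 (0.188%) passed a Benjamini-Hochberg adjusted p of 0.05, 28 (0.169%) higher and 3 (0.0182%) lower in the allogeneic group. The 28 were led by Cd8a, Cd8b1 and Cd3g, and held 1 MHC gene, H2-Q7, and 1 clock gene, Dbp. The 3 that fell were the immediate early gene Fos and the clock genes Arntl and Npas2. In each of the 31, the 3 allogeneic libraries did not overlap the 3 SCI libraries. Over all genes tested, 694 (4.20%) lay above and 544 (3.29%) below SCI without overlap. The log2 fold change was positive in 8330 of the 16527 genes and negative in 8197. The median log2 fold change over all genes was 0.0014. Without SCI replicate 1, 2 or 3, edgeR called 0 genes each time (smallest adjusted p of 0.0565, 0.0513 and 0.0579, with 421, 427 and 304 genes at an unadjusted p below 0.05). DESeq2 called 71 genes with every library, and 43, 45 and 45 without those same libraries in turn. All 31 kept their direction in each of these fits.

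**Figure D1:**
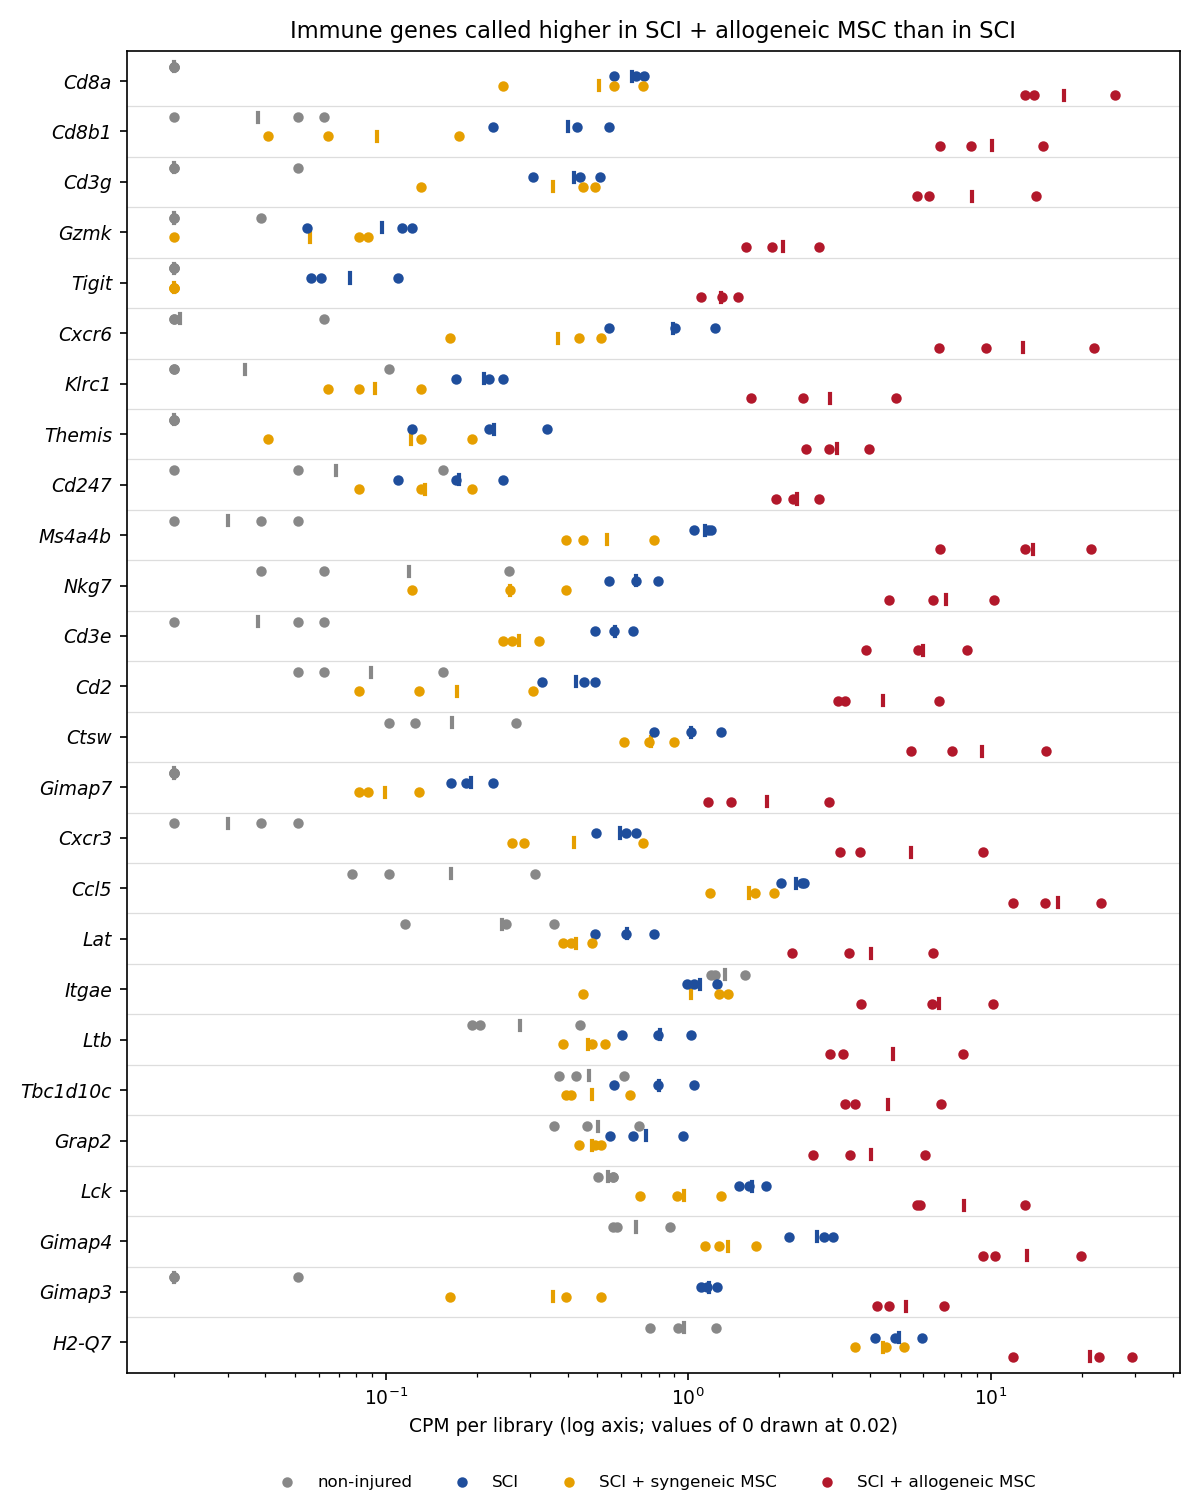
CPM in each of the 12 libraries (points, log axis) and the group mean (bars) for 26 immune genes called higher in cord with allogeneic MSCs than in SCI. For each gene the 3 allogeneic libraries (red) lie to the right of all SCI (blue) and syngeneic (orange) libraries. The genes were picked for high values in those 3 libraries, so the choice partly fixes this. Cd8a has the widest gap, from 0.714 CPM in the highest SCI library to 13 CPM in the lowest allogeneic one.

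Both CD8 chains rose, with the largest log2 fold changes among the called genes. Cd8a, the alpha chain of CD8 (chr6:71373427-71379173, GRCm38), measured 0.674, 0.714 and 0.567 CPM in the SCI libraries and 13.9, 25.7 and 13 CPM in the allogeneic libraries. Every allogeneic library was far above every SCI library, and replicate 2 was the highest. The log2 fold change was 4.72 ± 0.40 (SE, adjusted p = 0.004 with edgeR). Cd8b1, the beta chain, whose gene lies 35933 bases away on the same chromosome, measured 0.429, 0.549 and 0.227 CPM in SCI and 8.63, 14.9 and 6.78 CPM with allogeneic MSCs. Its rise was 4.61 ± 0.45 (SE, edgeR adjusted p = 0.004), and again no library of one group came near the other. In the non-injured cord Cd8a was at 0 counts in all 3 libraries.

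The CD3 signalling chains rose with CD8. Cd3g was at 0.306, 0.439 and 0.510 CPM in SCI and at 5.71, 14.1 and 6.27 CPM in the allogeneic group, a log2 fold change of 4.33 ± 0.50 (SE, edgeR adjusted p = 0.00567). Cd3e, 18309 bases from Cd3g on chromosome 9, was at 0.490, 0.659 and 0.567 CPM against 5.77, 8.35 and 3.87 CPM, a change of 3.35 ± 0.36 (adjusted p = 0.00487). Cd247, the zeta chain, rose by 3.66 ± 0.46 (adjusted p = 0.00943). The 2 groups stood apart in all 3 genes. Cd3d, next to them in the complex, had 2.92, 3.84 and 2.68 CPM against 0.674, 0.384 and 0.0567 CPM in SCI and missed the threshold (3.06 ± 0.52, adjusted p = 0.0772).

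Cd4, the co-receptor of helper T cells, was not called. Its CPM values were 0.858, 1.32 and 0.737 in SCI and 1.17, 2.26 and 2.17 in the allogeneic group. The ranges overlapped, and the change was 0.92 ± 0.53 (SE, edgeR adjusted p = 1). On a scale corrected for length (mean CPM per kilobase of exon), the level of Cd8a was 4.82 with allogeneic MSCs and 0.179 in SCI. On the same per-kilobase scale the level of Cd4 was 0.462 and 0.241. Cd4 is also made by some macrophages, so its level is not one of helper T cells alone. In bulk tissue, more cells of a type and more RNA per cell cannot be told apart.

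Of the 18 genes on the list of the T cell receptor complex, its co-receptors and its proximal signalling, 9 rose and none fell. The 18 had a median log2 fold change of 2.72, beside 0.0014 for all genes tested. In 16 of the 18 the allogeneic libraries lay above all SCI libraries, beside 4.20% of all genes tested. Some of the 18, such as Cd3g, passed the filter on low counts only through the allogeneic group. The median and the 16 are therefore descriptions that the filter partly fixes. The 2 that overlapped were Cd4 and the co-stimulatory receptor Cd28 (0.29 ± 0.67). The receptor's constant regions did not pass, at 1.32 ± 0.28 for Trac, 1.88 ± 0.42 for Trbc1 and 2.81 ± 0.54 for Trbc2, and Trbc1 and Trbc2 are near-identical copies that share reads. Lck, the kinase that phosphorylates CD3, rose from 1.47, 1.59 and 1.81 CPM to 5.84, 13 and 5.72 CPM (2.30 ± 0.34, edgeR adjusted p = 0.0178). Lat, the membrane scaffold of the signalling complex, rose by 2.62 ± 0.42. Zap70, which docks on the phosphorylated zeta chain, was at 1.60 ± 0.34 and missed the threshold (adjusted p = 0.146). Cd2, an adhesion receptor of T and NK cells, rose by 3.33 ± 0.44. Summed over the 18 genes, the level was 13.7 to 19.2 CPM in SCI and 77.2 to 153 CPM in the allogeneic group.

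Some T cell genes outside that list were also called. They were picked because they passed the same test, so they are no separate evidence. Those with few counts in SCI, such as Themis, may have passed the filter only through the allogeneic group. Themis, needed for T cell selection in the thymus, was at 0.123, 0.220 and 0.340 CPM in SCI and 2.92, 3.95 and 2.44 CPM with allogeneic MSCs, and rose by 3.70 ± 0.44 (edgeR adjusted p = 0.0104). The adaptor Grap2, which links Lat to further signalling proteins, rose by 2.43 ± 0.36. Tbc1d10c, an inhibitor of calcineurin and Ras, rose by 2.47 ± 0.36. Ms4a4b, a membrane protein of T cells, went from 1.16, 1.04 and 1.19 CPM to 13, 21.5 and 6.83 CPM, a rise of 3.58 ± 0.41 (adjusted p = 0.00507). Ltb, which encodes lymphotoxin beta, rose by 2.51 ± 0.43 (adjusted p = 0.0448). These 5 and the NK receptor gene Klrc1 are the 6 called genes that none of the 52 lists held.

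Of 15 granule and effector genes of cytotoxic cells, 11 passed the filter on low counts, 4 rose and none fell. Some of the 11 passed the filter only through the allogeneic group, so their median log2 fold change of 2.87 and the 10 that lay above SCI without overlap are descriptions that the filter partly fixes. Among all genes tested, 4.20% lay above SCI in this way. The 4 not tested were Gzma (9 counts over SCI and 18 over the allogeneic group), Eomes (11 and 21), Ifng (0 and 9) and Ncr1 (13 and 2). Gzmk, a granzyme of memory CD8 T cells, was at 0.123, 0.0549 and 0.113 CPM in SCI and at 1.56, 2.71 and 1.89 CPM in the allogeneic group (4.29 ± 0.51, edgeR adjusted p = 0.00623). These SCI values rest on 2, 1 and 2 counts. Nkg7, a protein of cytotoxic granule membranes, rose by 3.37 ± 0.44, and Ctsw, the cathepsin of CD8 T and NK cells, rose by 3.17 ± 0.40.

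Ccl5, a chemokine that activated CD8 T cells store and release, is the fourth called member of the effector list and also belongs to the list of lymphocyte-attracting chemokines. It measured 2.02, 2.42 and 2.38 CPM in SCI and 11.9, 23.2 and 15.1 CPM with allogeneic MSCs. No library of either group came near the other, and the change was 2.87 ± 0.31 (SE, edgeR adjusted p = 0.00487). Ccl5 had the highest level of the called T cell and effector genes per unit of length, 17.4 CPM per kilobase in the allogeneic group and 2.37 in SCI. 

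The killing molecules themselves were sparse. Prf1, the pore former perforin, had 0, 1 and 1 counts in SCI and 13, 29 and 15 counts with allogeneic MSCs, a ratio of group levels of 32.4 with a 95% interval of 8.55 to 274 that covers counting error only. It did not pass the test (adjusted p = 0.209). Gzmb, the main apoptosis-inducing granzyme, was at 0, 0.220 and 0.227 CPM against 2.08, 3.27 and 1.15 CPM (3.71 ± 0.66, adjusted p = 0.0582). Fasl, the ligand of the death receptor Fas, was at 2.11 ± 0.43, and Tbx21, the transcription factor T-bet, at 2.13 ± 0.47, neither called. Ifng, the gene of interferon gamma, was at 0 counts in each SCI library and at 3 counts in each allogeneic library, at least 3.41-fold higher against a floor of 3 counts over the group. It was too low for the test.

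Receptors shared by NK and T cells split. Klrc1, which encodes the inhibitory receptor NKG2A, rose from 0.245, 0.220 and 0.170 CPM to 2.40, 4.85 and 1.61 CPM (3.71 ± 0.56, edgeR adjusted p = 0.0211). Its partner Klrd1 was at 2.52 ± 0.50 and the activating receptor Klrk1 at 2.49 ± 0.60, both without overlap and neither called. Klrb1c, which encodes the NK1.1 antigen that marks NK cells in this strain, was at 0.674, 0.494 and 0.964 CPM in SCI and 0.195, 0.338 and 0.507 CPM in the allogeneic group. It was the 1 tested member of the list below 0 (-0.96 ± 0.56, adjusted p = 1). Ncr1, the other NK marker on the list, had 13 counts over the SCI group and 2 over the allogeneic group and was not tested.

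Receptors of tissue-homing and chronically stimulated T cells rose in part. Of 17 genes on the list of activation, residency and checkpoint genes, 13 passed the filter, 4 rose and none fell, with a median of 0.82 over those that passed. Some of the 13, such as Tigit, passed only through the allogeneic group, so that median is a description that the filter partly fixes. The 4 too low to test were Icos (12 counts over SCI and 44 over the allogeneic group), Ctla4 (2 and 20), Tnfrsf9 (13 and 11) and Foxp3, given with the cytokine receptors. Cxcr6, a chemokine receptor of tissue-resident T cells, was at 1.23, 0.549 and 0.907 CPM in SCI and 9.66, 22 and 6.73 CPM with allogeneic MSCs (3.82 ± 0.52, edgeR adjusted p = 0.0107). Cxcr3, the receptor for Cxcl9 and Cxcl10, rose by 3.14 ± 0.49, and Itgae, the CD103 chain that anchors resident T cells and is also carried by some dendritic cells, rose by 2.60 ± 0.41. Tigit, an inhibitory receptor, rose from 1, 2 and 1 counts to 17, 13 and 28 counts (3.94 ± 0.46, adjusted p = 0.0253). Lag3 and Pdcd1, 2 further inhibitory receptors, were not called. Lag3 was already at 39.1 to 49.0 CPM in SCI and at 52.1 to 59.3 CPM in the allogeneic group (0.31 ± 0.23), and microglia also make it. Pdcd1 was at 2.82, 3.57 and 2.83 CPM against 4.47, 6.77 and 5.21 CPM (0.82 ± 0.39).

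Cytokine receptors of T cells had high values short of the threshold. Il2rb, the shared chain of the IL-2 and IL-15 receptors, was at 1.47, 1.54 and 1.25 CPM against 5.64, 9.82 and 4.94 CPM (2.23 ± 0.43, edgeR adjusted p = 0.0952). Il7r, which sustains naive and memory T cells, was at 1.90 ± 0.43 (adjusted p = 0.217). Foxp3, the defining gene of regulatory T cells, had 8 counts over the SCI group and 2 over the allogeneic group and was not tested.

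The Gimap genes, a cluster of GTPases that support lymphocyte survival, were described as a family of 8. Of these, 3 rose, and 7 of 8 lay above SCI without overlap, beside 4.20% of all genes tested. The family median was 1.16. Gimap7 passed the filter on low counts only through the allogeneic group. Gimap4 was at 2.82, 3.02 and 2.15 CPM in SCI and 10.4, 19.9 and 9.46 CPM with allogeneic MSCs (2.29 ± 0.30, edgeR adjusted p = 0.00958). Gimap7 rose by 3.14 ± 0.47 and Gimap3 by 2.15 ± 0.35. The other 5 ranged from 0.66 for Gimap9 to 1.20 for Gimap1, and Gimap6 was the most abundant in SCI at 5.88 to 8.29 CPM. The members are similar in sequence and some exons overlap, so reads may be split between them. All 3 called members lie within 48684549 to 48770851 on chromosome 6.

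None of the 8 tested members of the B cell list was called, and the median was 0.12. Beside 4.20% of all genes tested, 1 of 8 lay above SCI without overlap. That gene was Ighg2c, an immunoglobulin heavy chain of switched B cells, with 1, 1 and 1 counts in SCI and 11, 15 and 6 counts in the allogeneic group (ratio 12.1, 95% interval 3.79 to 61.8 from counting error only; adjusted p = 0.57). Jchain, the joining chain of secreted IgM and IgA, overlapped between the groups. Ms4a1, a surface marker gene of B cells, had 21 counts over the SCI group and 6 over the allogeneic group.

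**Figure D2:**
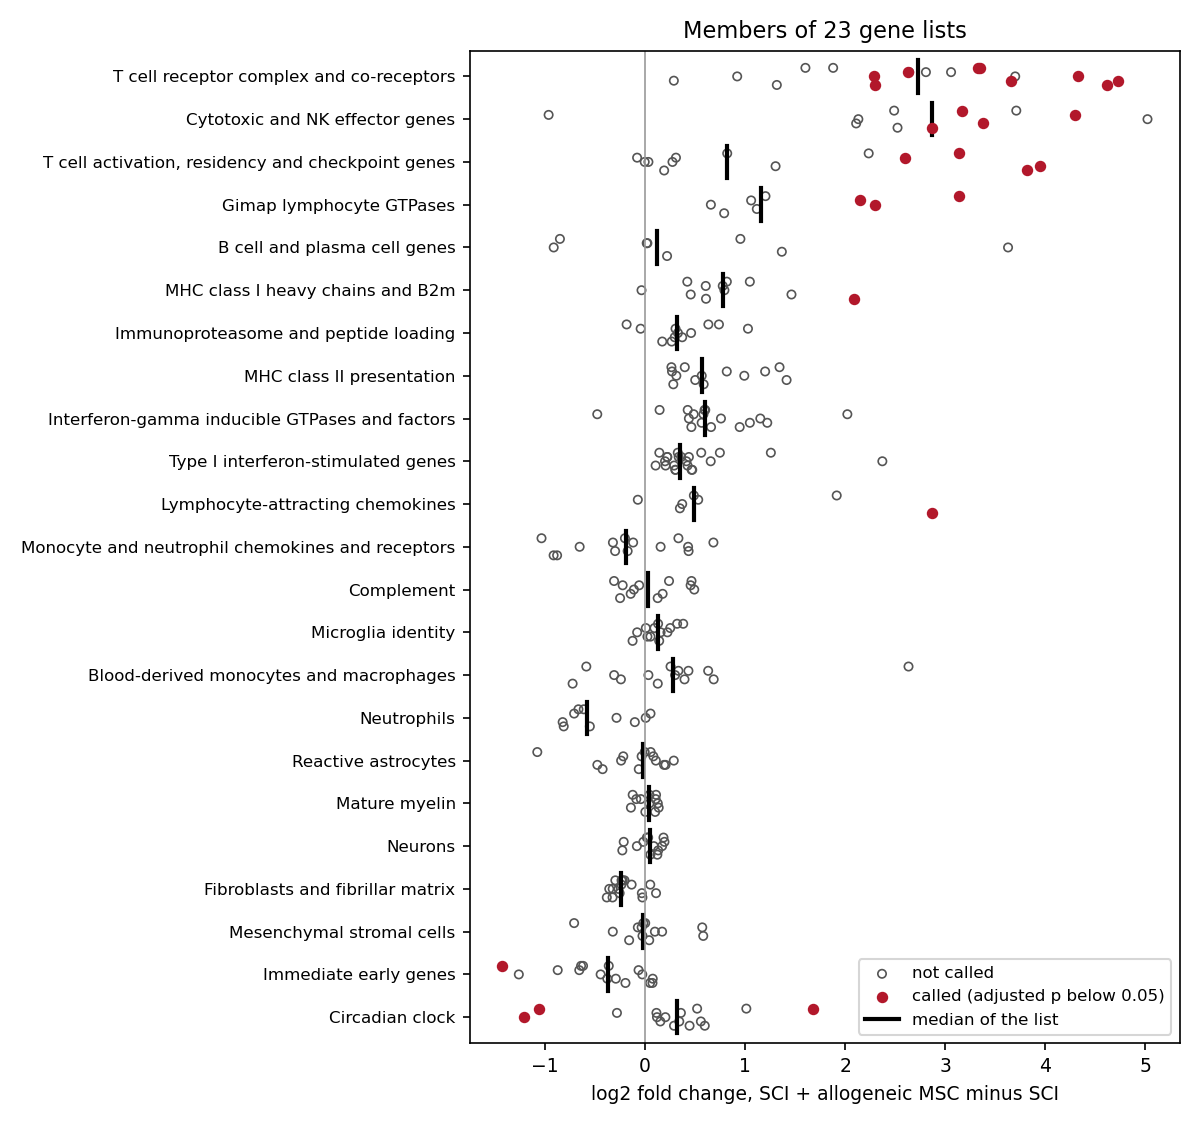
Log2 fold change of each tested member of 23 gene lists, cord with allogeneic MSCs minus SCI, with members called by edgeR filled and the list median as a bar. The 4 lists of T cell, effector, activation and Gimap genes hold 20 of the filled entries and have medians of 0.82 to 2.87, while the lists drawn for reactive astrocytes, mature myelin, neurons and MSCs have medians of -0.02 to 0.05 and no filled point. Some members of those 4 lists passed the filter on low counts only through the allogeneic group.

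Among MHC class I genes, 1 rose. The products of H2-K1 and H2-D1 are the classical heavy chains, those of the Q and T region genes are non-classical, B2m encodes the light chain and Nlrc5 the transactivator of the set. Of 11 members, 10 lay above all SCI libraries, beside 4.20% of all genes tested. Of the 11, 1 was called, and the median was 0.78. In the proximal promoters (RefSeq, GRCm38.p6, 250 bases before to 50 after the start) of 9 of these genes, the kappa B motif, the 10 letters in capitals below, searched on both strands, was found in 4, beside 0.126% of the 27025 genes with a promoter. The stretches of H2-Q6, H2-K1 and H2-D1 matched each other at 56 to 59 of 60 bases. That of H2-Q7 lacks a c after the motif, which shifts the bases that follow. It matched the other 3 at 38 to 41, compared position by position with no gap allowed, so this count understates the likeness. The 4 matches are therefore not independent, and the 2 shares are no test of enrichment. The 4 are shown because they include the called gene and both classical heavy chains, with that motif in capitals.
H2-Q7 (chr17:35438997-35439056, plus strand): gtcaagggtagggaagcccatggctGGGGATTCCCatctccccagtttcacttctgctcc
H2-Q6 (chr17:35424652-35424711, plus strand): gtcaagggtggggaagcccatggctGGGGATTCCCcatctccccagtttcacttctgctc
H2-K1 (chr17:34000424-34000483, minus strand): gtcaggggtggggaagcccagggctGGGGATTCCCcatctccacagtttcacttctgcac
H2-D1 (chr17:35262898-35262957, plus strand): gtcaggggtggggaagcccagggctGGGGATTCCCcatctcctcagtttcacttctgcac
B2m carried another motif, the interferon-stimulated response element, searched as GAAA, any 2 bases and GAAA again, in capitals below. That motif, searched on both strands, was in 3 of the 9 class I genes (B2m, H2-T22 and H2-T23) and in 3.99% of all genes with a promoter. Only exact matches to these letters were counted. The other class I genes, including those of the 4 stretches above, may therefore carry variants of the element.
B2m (chr2:122147523-122147582, plus strand): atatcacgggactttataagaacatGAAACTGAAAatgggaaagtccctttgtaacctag
A match is a description of the letters and no measure of binding.

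H2-Q7, the gene of the first of these stretches, was the 1 called MHC gene. It measured 4.84, 5.93 and 4.14 CPM in SCI and 22.8, 29.3 and 11.9 CPM with allogeneic MSCs, and every allogeneic library was at least as high as 11.9 CPM while no SCI library passed 5.93 CPM. The change was 2.09 ± 0.30 (SE, edgeR adjusted p = 0.0178). H2-Q7 and H2-Q6 are near-identical copies, and reads may be divided between them. H2-Q6 was at 7.35, 9.17 and 5.22 CPM against 20.2, 27.8 and 12.5 CPM (1.46 ± 0.40, adjusted p = 0.57).

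The classical chains were far more abundant and changed less. H2-D1 was at 319, 360 and 261 CPM in SCI and 447, 600 and 563 CPM in the allogeneic group (0.78 ± 0.21, edgeR adjusted p = 0.525). H2-K1 was at 159, 183 and 133 CPM against 263, 326 and 247 CPM (0.82 ± 0.24, adjusted p = 0.772). B2m was at 516, 571 and 472 CPM against 682, 926 and 771 CPM (0.61 ± 0.25, adjusted p = 1). In all 3 the groups did not overlap, and none passed the test. Nlrc5 was at 9.44, 12.2 and 9.92 CPM against 27.4, 25.7 and 12.6 CPM (1.05 ± 0.32, adjusted p = 0.817). H2-T24 was the member that overlapped (-0.03 ± 0.27).

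**Figure D3:**
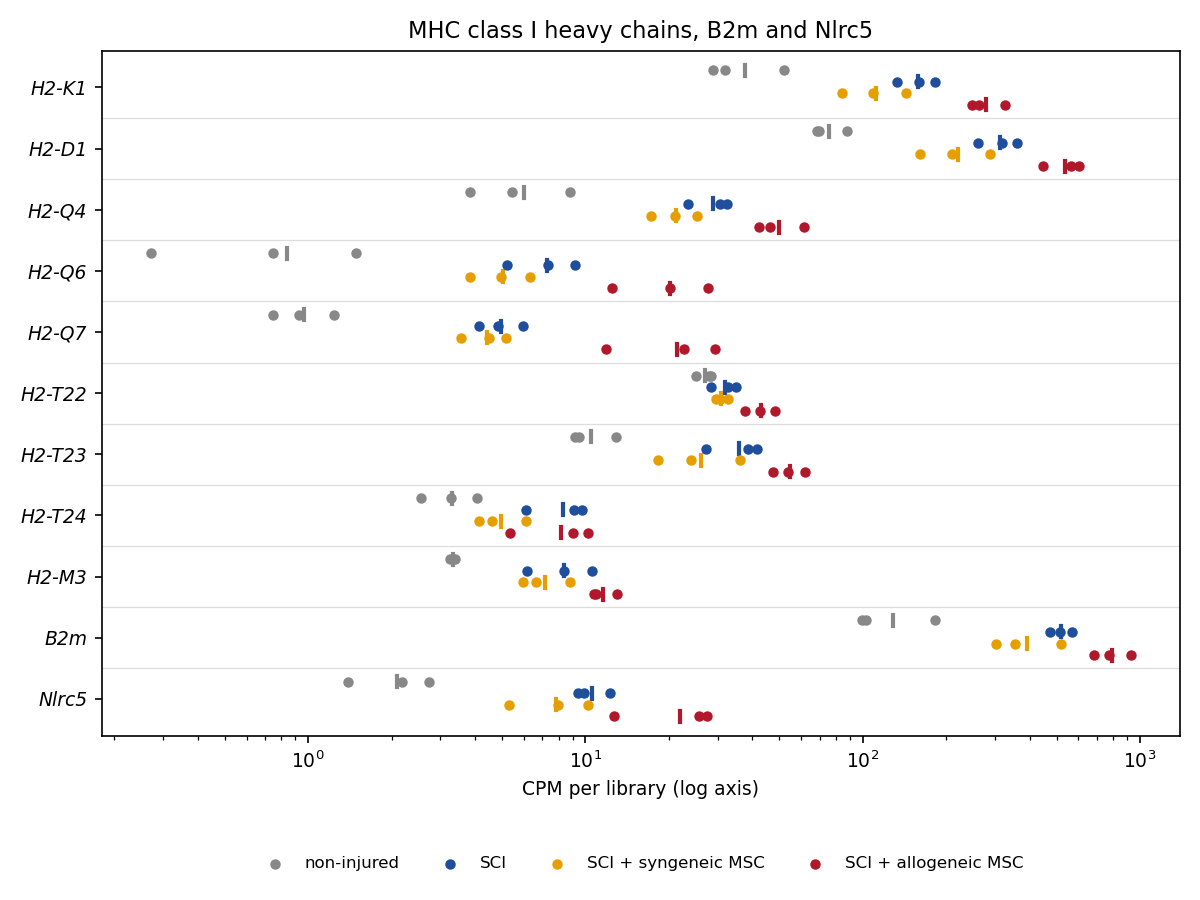
CPM of the 11 MHC class I genes in each library (points, log axis) with group means (bars). The allogeneic libraries (red) lie to the right of all SCI libraries (blue) in 10 of 11 genes, with H2-T24 the exception. The share over all genes tested was 4.20%.

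Peptide supply to class I gave smaller values. None of the 12 genes for the immunoproteasome and peptide loading was called, and the median was 0.32. Without overlap, 7 lay above SCI and 1 below, beside 4.20% and 3.29% of all genes tested. Psmb9, a catalytic subunit of the immunoproteasome, was at 5.27, 6.64 and 5.05 CPM against 11.3, 13.1 and 10.3 CPM (1.03 ± 0.26, edgeR adjusted p = 0.366). Psmb8 was at 0.63 ± 0.22 and Tap1, part of the peptide transporter, at 0.74 ± 0.26. Exons of Psmb9 and Tap1 overlap on opposite strands. Calr, the chaperone calreticulin, was the 1 member below SCI without overlap, at 492, 504 and 480 CPM against 405, 464 and 431 CPM (-0.18 ± 0.14).

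MHC class II genes, made by microglia, macrophages and dendritic cells, had positive values throughout, 13 of 13, with a median of 0.57. No member was called and 6 of 13 lay above SCI without overlap, beside 4.20% of all genes tested. Cd74, the invariant chain, was at 66.4, 68.5 and 48.3 CPM in SCI and 224, 153 and 112 CPM with allogeneic MSCs (1.41 ± 0.41, edgeR adjusted p = 0.718). H2-Aa was at 28.9, 26.8 and 22.4 CPM against 84.7, 64.6 and 49.1 CPM (1.34 ± 0.43, adjusted p = 0.968). Both genes separated the groups. Ciita, the master regulator of class II, had 1.35, 1.21 and 0.680 CPM against 1.49, 1.24 and 1.20 CPM, which overlap. Dendritic cell genes other than Itgae were not called, and their list had a median of -0.05.

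Interferon-responsive genes differed between the allogeneic libraries. Of 17 tested genes induced by interferon gamma, none was called, 16 were positive and 4 lay above SCI without overlap, with a median of 0.59. Over all genes tested, 4.20% lay above SCI without overlap. Igtp, an immunity-related GTPase, was at 12.3, 15.5 and 9.41 CPM in SCI and 33.8, 27.5 and 15.9 CPM with allogeneic MSCs (1.05 ± 0.30, edgeR adjusted p = 0.657). Irf1, the transcription factor downstream of interferon gamma, was at 15.5, 13.5 and 12.1 CPM against 18.4, 20 and 18.3 CPM (0.46 ± 0.13, adjusted p = 0.657). Gbp2, a guanylate-binding protein, was at 56.4, 54.0 and 28.8 CPM with allogeneic MSCs, and replicate 3 lay within the SCI range of 28.2 to 32.3 CPM.

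Type I interferon-stimulated genes were all positive, 22 of 22, beside 8330 of the 16527 genes tested. Their median was 0.35 and none was called. Beside 4.20% of all genes tested, 1 of the 22 lay above SCI without overlap. That gene was Oas3, an RNA sensor, at 0.551, 0.824 and 0.170 CPM against 4.54, 2.60 and 1.06 CPM (2.37 ± 0.65, edgeR adjusted p = 0.555). The list mean, as the log2 CPM difference from the SCI mean, was 0.90, 0.62 and -0.24 in allogeneic replicates 1, 2 and 3. The order was not that of the T cell receptor list, whose means were 2.15, 3.13 and 2.28 in the same libraries. 

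Among the lymphocyte-attracting chemokines, Ccl5 was the 1 called of 7 tested, and the median was 0.49. Cxcl9, which draws cells with Cxcr3, was at 1.16, 1.65 and 1.3 CPM in SCI and 8.95, 4.40 and 2.31 CPM with allogeneic MSCs (1.92 ± 0.63, edgeR adjusted p = 1). Cxcl10, with the same receptor, was at 13.7, 9.61 and 11.7 CPM against 26.9, 13.5 and 10.2 CPM. Cxcl9 separated the groups and Cxcl10 did not.

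Chemokines and receptors of monocytes and neutrophils leaned the other way without a call. Of 14 tested, 3 lay below SCI and 1 above without overlap, and the median was -0.19. Over all genes tested, the shares below and above were 3.29% and 4.20%. Ccl2, which recruits monocytes, was at 5.21, 7.03 and 5.61 CPM in SCI and 2.92, 2.60 and 3.14 CPM in the allogeneic group (-1.03 ± 0.26, edgeR adjusted p = 0.36). Ccl7 and the receptor gene Ccr1 were the other two below SCI, at -0.88 ± 0.56 and -0.91 ± 0.32. Ccl3 was above it, at 8.52, 8.90 and 8.45 CPM against 10.6, 14.3 and 16.6 CPM.

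Cytokine genes gave no call among 12 tested (median 0.07). Il1b, the interleukin 1 beta gene, was at 1.59, 2.53 and 2.44 CPM against 1.3, 1.13 and 0.692 CPM (-1.10 ± 0.37). Lif, a cytokine of the interleukin 6 family, was at 2.88, 2.64 and 7.03 CPM against 1.36, 1.58 and 0.923 CPM (-1.74 ± 0.43, edgeR adjusted p = 0.335). Both lay below SCI without overlap, 2 of the 12, beside 3.29% of all genes tested. Tnf overlapped (0.39 ± 0.38). Il6 had 10 counts over the SCI group and 2 over the allogeneic group and was not tested.

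Lists of resident and infiltrating phagocytes held no called gene. No gene of the lists for microglia (13 tested, median 0.13), lipid-laden phagocytes (20, median 0.27), complement (12, median 0.03), Fc receptors (8, median 0.30), Toll-like receptors (13, median 0.03) or macrophage polarisation (11, median -0.31) was called. Csf1r, the growth factor receptor of microglia and macrophages, was at 319, 398 and 353 CPM in SCI and 325, 392 and 360 CPM with allogeneic MSCs (0.01 ± 0.21). Aif1, which encodes IBA1, was at 25.6, 25.7 and 22.5 CPM against 22.8, 33.1 and 36.3 CPM (0.32 ± 0.24). Arg1, an enzyme of alternatively activated macrophages, overlapped at under 1 CPM.

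Of 14 blood monocyte and macrophage genes none was called (median 0.28). Ly6c2 had the lowest p of that list, at 0.980, 0.604 and 0.907 CPM in SCI and 4.02, 8.80 and 3.09 CPM in the allogeneic group (2.63 ± 0.46, edgeR adjusted p = 0.0544). It marks inflammatory monocytes and is also made by CD8 T cells. Neutrophil genes had a median of -0.58 over 10 tested, with none called. Beside 3.29% of all genes tested, 3 of the 10 lay below SCI without overlap. The alarmin genes S100a8 and S100a9 were 2 of these 3, at -0.66 ± 0.36 and -0.71 ± 0.39. Red blood cell genes had a median of -0.00059 over 9.

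Of the 16 clock genes, 1 rose and 2 fell. Arntl, which encodes the activator BMAL1, was at 22.8, 21.5 and 20.4 CPM in SCI and 10.6, 9.59 and 10.7 CPM with allogeneic MSCs, and fell by 1.06 ± 0.12 on the log2 scale (edgeR adjusted p = 0.00507). Npas2, a partner of BMAL1, was at 17.7, 19.3 and 17.2 CPM against 8.76, 7.11 and 7.52 CPM and fell by 1.21 ± 0.20 (adjusted p = 0.0448). Dbp, an output factor driven by BMAL1, was at 20.6, 21.2 and 21.4 CPM against 62.4, 75.6 and 64.2 CPM and rose by 1.68 ± 0.21 (adjusted p = 0.00943). Each of the 3 had tight groups far apart. Over the whole list, 8 lay above and 2 below SCI without overlap, beside 4.20% and 3.29% of all genes tested. The list median was 0.32.

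Of the 16 clock genes, 13 had positive values and 3 negative ones. Ciart, a repressor of BMAL1, was at 5.51, 5.55 and 5.56 CPM in SCI and 10.1, 8.69 and 14.5 CPM in the allogeneic group (1.01 ± 0.24, edgeR adjusted p = 0.292). Per2 was at 14.3, 16.3 and 13.7 CPM against 21.9, 22.8 and 22.5 CPM (0.60 ± 0.13, adjusted p = 0.21). The period gene Per1 overlapped (0.34 ± 0.28), as did Clock (-0.28 ± 0.19) and Cry1 (0.11 ± 0.11). The E-box CACGTG, to which BMAL1 dimers bind and which reads the same on both strands, was in the promoters of 5 of 14 clock genes, and in 8.09% of all genes with a promoter. The 5 were Ciart, Tef, Bhlhe41, Per1 and Cry1, and no called clock gene was among them. These shares are no test of enrichment. Ciart is shown as the promoter with 3 such matches, and Tef as one with a single match among genes above SCI without overlap, with E-boxes in capitals.
Ciart (chr3:95882242-95882369, minus strand): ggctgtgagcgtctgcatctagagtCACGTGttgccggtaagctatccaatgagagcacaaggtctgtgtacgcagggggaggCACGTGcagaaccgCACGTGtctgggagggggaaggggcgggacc
Tef (chr15:81802521-81802576, plus strand): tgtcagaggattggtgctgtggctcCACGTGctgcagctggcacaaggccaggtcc
Tef, a relative of Dbp, was at 146, 151 and 143 CPM against 208, 169 and 187 CPM (0.36 ± 0.12).

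**Figure D4:**
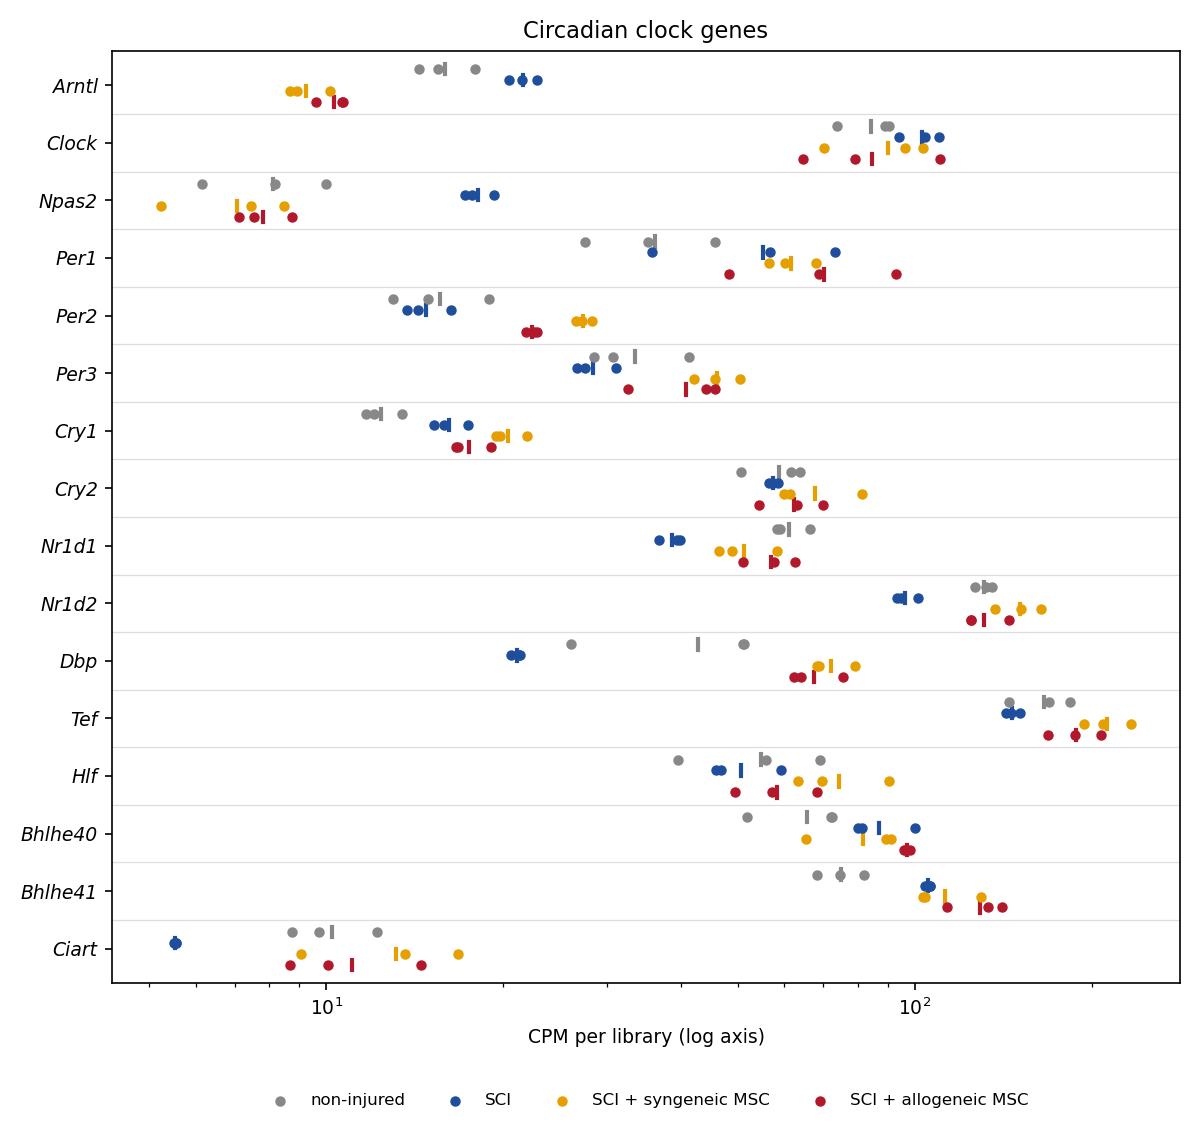
CPM of the 16 clock genes in each library (points, log axis) with group means (bars). Arntl and Npas2 are lower and Dbp higher in the allogeneic (red) than in the SCI (blue) libraries, and the syngeneic libraries (orange) lie beside the allogeneic ones.

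In the syngeneic group, 1 gene (0.00605%) was called higher and 5 (0.0303%) lower than SCI, and Dbp, Arntl and Fos were called with the same sign in both comparisons, which share their controls. Against the same SCI libraries, the syngeneic group had log2 fold changes of 1.77 ± 0.21 for Dbp, -1.22 ± 0.12 for Arntl and -1.36 ± 0.20 for Npas2. The direct difference, allogeneic minus syngeneic, was -0.10 ± 0.21 for Dbp, 0.16 ± 0.12 for Arntl and 0.16 ± 0.21 for Npas2, and no clock gene was called in it. No source used here says whether the groups were collected at different hours, and its part in the result was not tested.

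Immediate early genes, which respond within minutes to stimulation or handling, leaned below SCI. Fos was at 104, 116 and 148 CPM in SCI and 45.3, 58.0 and 34.2 CPM with allogeneic MSCs, and fell by 1.42 ± 0.23 on the log2 scale (edgeR adjusted p = 0.0301). Of the 16 genes on the list, 1 fell, and 7 lay below SCI without overlap, beside 3.29% of all genes tested. The list median was -0.37. Egr1 was at 97.2, 108 and 112 CPM against 58.3, 61.6 and 53.6 CPM (-0.87 ± 0.20, adjusted p = 0.235). Dusp1 was at -0.62 ± 0.17, Nr4a1 at -0.64 ± 0.21 and Junb at -0.36 ± 0.20. The syngeneic group had -1.88 ± 0.23 for Fos against the same SCI libraries, and the difference between the 2 grafts was 0.46 ± 0.22 (adjusted p = 0.381).

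Cord tissue lists gave no call. Medians were -0.02 for reactive astrocytes (14 genes), -0.07 for homeostatic astrocytes (12), 0.04 for mature myelin (12), -0.10 for oligodendrocyte precursors (12), 0.05 for neurons (13), 0.19 for motor neurons (10), -0.16 for synaptic transmission (16) and 0.01 for regeneration-associated genes (13). Gfap, the astrocyte filament, was at 5758, 6841 and 6975 CPM in SCI and 5626, 8155 and 5756 CPM with allogeneic MSCs. Mbp, a myelin protein, had 0.04 ± 0.36, Snap25, a synaptic protein, 0.02 ± 0.17, and Nefl, the light neurofilament, 0.13 ± 0.18. Schwann cell genes had a median of 0.51 over 12, with allogeneic list means of -0.27, 0.84 and 0.48, so the libraries did not share a direction.

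Stromal lists, which include the markers of the grafted cell type, gave no call either. The 13 MSC markers had a median of -0.02, and their summed level was 1345 to 1488 CPM in SCI and 1310 to 1573 CPM in the allogeneic group. Nt5e and Ly6a, which encode the MSC surface markers CD73 and Sca-1, were the 2 of 13 above SCI without overlap, at 0.57 ± 0.18 and 0.58 ± 0.27. The share above SCI over all genes tested was 4.20%. Host stroma, vessels and immune cells make these markers too. Of the genes whose presence could tell some donors from the host, the Y-linked Ddx3y, Eif2s3y, Uty and Kdm5d and the class II pseudogene H2-Ea-ps had 0 counts in all 12 libraries. The X-linked Xist, the 1 tested gene of that list, was at 480 to 867 CPM in the 12 libraries. The Y-linked genes could show male donor cells only. Fibroblast and fibrillar matrix genes had a median of -0.23 over 16, with list means of -1.22, 0.18 and 0.08 in allogeneic replicates 1, 2 and 3. Col1a1, the main fibrillar collagen chain, was at 394, 260 and 250 CPM in SCI and at 105, 350 and 282 CPM in the allogeneic group.

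The remaining lists were also without a call. They had medians of -0.16 for scar proteoglycans, -0.10 for matrix proteases, -0.12 for endothelium, -0.12 for pericytes and smooth muscle, 0.19 for meninges and -0.03 for ependyma. The medians were 0.16 for bone and cartilage, 0.45 for adipocytes (2 tested), 0.10 for skeletal muscle and 0.03 for trophic factors. They were 0.07 for cholesterol synthesis, 0.10 for oxidative phosphorylation, -0.09 for cell cycle, -0.07 for heat shock and -0.08 for Hox genes. Flt1, a receptor for vascular growth factor, was 1 of 2 endothelial genes below SCI without overlap, at 134, 130 and 126 CPM against 115, 109 and 89.4 CPM. Those 2 were among 13 tested, beside 3.29% of all genes tested.

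Several genes of no T cell list were among the largest separated differences at a mean log2 CPM of 1 or more, and none of those named here was called. Ptpn22, a phosphatase that restrains T cell receptor signalling, was at 2.70, 2.53 and 2.49 CPM in SCI and 5.32, 10.5 and 7.89 CPM with allogeneic MSCs (1.60 ± 0.28, edgeR adjusted p = 0.0577). Ifit1bl1, a relative of the interferon-induced Ifit genes, was at 1.57 ± 0.32 and the transcript AW112010 at 1.54 ± 0.36. Cdh1, the epithelial cadherin, was at 5.76, 3.18 and 4.25 CPM against 7.26, 15.2 and 22 CPM, and Fmo2, a monooxygenase, at 1.58 ± 0.47. On the lower side, Socs3, the feedback inhibitor of interleukin 6 signalling, was at 20.6, 25.9 and 50.6 CPM against 12.2, 17.5 and 16.5 CPM. Ccn1, a matricellular protein, was at 104, 82.7 and 105 CPM against 39.5, 59.9 and 36.8 CPM (-1.11 ± 0.33, adjusted p = 0.779). Fbn2, Zfp36, Apold1 and Creb3l1 were at -1.02 ± 0.24, -0.83 ± 0.25, -0.80 ± 0.37 and -0.78 ± 0.33.

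The T cell and MHC values differed from those with a syngeneic graft. The 28 genes that rose against SCI were picked for high values in the same allogeneic libraries, so the choice partly fixes their result here. All but Dbp were called in the direct difference, in which 98 of 16527 genes (0.593%) were higher and 3 (0.0182%) lower. For Cd8a that difference was 5.14 ± 0.41 (SE, edgeR adjusted p = 0.000918), and syngeneic minus SCI was -0.41 ± 0.47. For the T cell receptor list, 15 of 18 genes were called in the direct difference, beside 9 against SCI. H2-K1 and H2-D1, not called against SCI, were called there, at 1.32 ± 0.24 and 1.29 ± 0.21. In the syngeneic group these 2 had -0.50 ± 0.24 and -0.51 ± 0.21 against SCI. The syngeneic libraries were uneven. Their means of the MHC class II list, as log2 CPM differences from the SCI mean, were -0.97, -1.31 and -0.06 in replicates 1, 2 and 3. Those of the complement list were -1.56, -1.91 and -0.06. Syngeneic replicate 2 was correlated at 0.977 to 0.978 with non-injured cord and at 0.968 to 0.974 with SCI. The part of this unevenness in the direct difference was not tested.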

How the data were processed

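The deposited table gives read counts per gene for 12 libraries of mouse cord, polyA-selected with a stranded kit per the labels' protocols. Per the submitters' processing notes, the authors used Trim Galore 0.4.1, STAR 2.5.1 and featureCounts 1.5.1 with GRCm38. The strand setting of the counting is not given in the sources used here, so genes that overlap on opposite strands, such as Cd3e, Themis, Ctsw, Arntl and Dbp, may share reads. Groups came from the sample labels, with replicates numbered in accession order. Replicate pairs differed beyond sampling noise (chi-square per degree of freedom 7.18 to 85.5).

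All 12 libraries were fitted in edgeR 4.0.16 (R 4.3.3) by the quasi-likelihood test with TMM factors, after filterByExpr (minimum count 10, total 15). Benjamini-Hochberg adjustment ran over all 16527 genes, with 8 residual degrees of freedom from 4 group means. The same test was run on 1 simulated set of counts with the fitted spread. It recovered 27 of 50 genes changed 2-fold, 39 of 50 changed 4-fold and 49 of 50 changed 8-fold. Of its 175 calls, 11 were false. A gene that was not called may therefore still have changed. Fold changes are log2 with SE, CPM use TMM-scaled library sizes, and gene positions and exon lengths are from GENCODE M21. Named genes are those called (1 is not reported here), the 10 largest rises and falls without overlap at a mean log2 CPM of at least 1, and leading or fixed members of 52 lists, which held 649 genes. Other list members were named after their values were seen. The comparison, the members and the lists were chosen with earlier results of these data known. Alternatives were other scalings, filters, libraries left out, limma-voom (limma 3.58.1) and DESeq2 1.42.0.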

Additional observations from a re-analysis of the deposited data

Results flagged for a closer look

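Each gene here differed between the allogeneic and the syngeneic graft in the direct test of that difference (edgeR, adjusted p from 0.00086 for Cd8b1 to 0.0456 for Cd74), with values given as log2 allogeneic minus syngeneic. This held for 49 of the 139 genes examined one by one, all higher with allogeneic MSCs. Of these 49, 26 were also called against SCI. Among all 16527 genes tested, 98 (0.593%) were higher and 3 (0.0182%) lower. Genes called against SCI were examined for that reason, with the same allogeneic libraries, so the choice partly fixes these counts. In the MHC class I and class II lists, syngeneic replicates 1 and 2 lay further below the SCI mean than replicate 3. The part of this in each difference was not tested.

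Among the genes of the T cell receptor and its signalling the differences were 5.14 for Cd8a, 6.62 for Cd8b1, 4.58 for Cd3g, 4.41 for Cd3e, 4.07 for Cd247, 4.57 for Cd2, 3.08 for Lck, 3.18 for Lat, 4.68 for Themis, 3.02 for Grap2 and 3.24 for Tbc1d10c. Effector genes had 4.86 for Gzmk, 4.75 for Nkg7, 3.62 for Ctsw, 3.40 for Ccl5 and 4.81 for Klrc1. Receptors and membrane genes of T cells had 7.57 for Tigit, 5.12 for Cxcr6, 3.73 for Cxcr3, 2.65 for Itgae, 4.70 for Ms4a4b and 3.28 for Ltb. The Gimap family had 4.09 for Gimap7, 3.90 for Gimap3 and 3.28 for Gimap4, and H2-Q7 had 2.27. In Tigit, all 3 syngeneic libraries were at 0 counts, so its fitted difference depends on the prior count and is no bound.

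The other 23 were not called against SCI. Receptor chains and signalling genes had 2.14 for Trac, 3.67 for Trbc1, 3.83 for Trbc2, 3.24 for Cd3d, 4.17 for Cd6 and 1.86 for Zap70, and effector genes had 4.36 for Gzmb, 3.93 for Klrd1, 2.96 for Fasl and 2.65 for Tbx21. Cytokine receptors and other lymphoid genes had 3.0 for Il2rb, 3.0 for Il7r, 2.12 for Ptpn22 and 3.70 for Ly6c2. Antigen presentation genes had 1.32 for H2-K1, 1.29 for H2-D1, 1.53 for Psmb9, 1.28 for Psmb8, 1.37 for Tap1 and 2.19 for Cd74. Interferon-responsive genes had 1.90 for Tgtp1 and 0.94 for Irf1, and the transcript AW112010 had 1.98. Fos, Arntl, Npas2 and Dbp, also called against SCI, did not pass the test of this difference.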

How the results depend on the processing

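The count of 31 called genes (28 higher, 3 lower) rose to 50 (47 higher) with no filter on low counts and fell to 17 (14 higher) when the 6 libraries of the 2 groups were fitted alone. DESeq2 called 71 (63 higher, 8 lower). With 1 library of the 2 groups left out, edgeR called 0 to 29 (0 to 28 higher, 0 to 2 lower), and each count of 0 was without 1 SCI library (unadjusted p below 0.05 for 304 to 427 genes). Limma-voom and DESeq2 were run without each SCI library after seeing this. Limma-voom called 0 (smallest adjusted p of 0.0598, 0.0528 and 0.0644, with 438, 426 and 303 genes at an unadjusted p below 0.05) and DESeq2 43 to 45 (40 to 42 higher, 3 to 4 lower), with 29, 29 and 30 of the 31 among them. The cause was not tested. Without non-injured replicate 3, also chosen after seeing the data, 34 were called. In every fit that tested them, the 31 kept their sign, with Cd8a at 4.35 to 4.91 and H2-Q7 at 1.80 to 2.39 in edgeR, limma-voom and DESeq2.

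Uncalled values near 0 changed sign. Gfap was 0.00997 with RLE factors, 0.0024 with library totals only, 0.0027 with the 6 libraries alone, 0.012 without non-injured replicate 3 and 0.00999 with DESeq2. With 1 library of the 2 groups left out in turn, Gfap ranged from -0.20 to 0.093, H2-T24 from -0.24 to 0.21, Csf1r from -0.065 to 0.095, Mbp from -0.087 to 0.19, Snap25 from -0.062 to 0.11, Cd28 from -0.076 to 0.64 and Col1a1 from -0.64 to 0.068.

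No paired analysis was possible because the labels give no replicate numbers shared between groups. With 3 libraries a group an exact permutation test of 1 gene cannot go below 0.1. Genes at a few counts in SCI, such as Tigit, Gzmk and Prf1, have folds of low precision, and allogeneic replicate 2 was the shallowest library.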
